A study of Mus musculus with 2 samples.

Results

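The distal bins gained in stroke astrocytes were 1456 autosomal 1 kb windows of the mm10 mouse genome, out of 17673 windows that could be compared (8.24%). They were chosen by measured values. In nuclei that passed an astrocyte gate, a bin needed at least 30 fragments over both conditions, had to lie over 5 kb from every protein-coding transcription start site (TSS), and needed a stroke over sham ratio of 2.5 or more, with 1 fragment added to each side. Levels are counts per 1000000 fragments (CPM) of the nuclei in question. The mirror rule, a ratio of 0.4 or less, was met by 378 of the same 17673 bins (2.14%). The larger number of gained bins is part of what the rule selected on and is given without a test.

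The nuclei came from wild-type male C57BL/6J mice, described as young adults, 48 h after surgery. Stroke mice had the middle cerebral artery occluded for 1 h and then reperfused, and their ipsilateral hemispheres were used. Sham mice had the filament inserted with no lasting occlusion, and their brains were used without a hemisphere being named, so the extent of tissue may differ. Olfactory bulbs and cerebellum were left out. Nuclei of 4 brains were pooled in each condition and processed as 1 sham library and 1 stroke library of single-cell ATAC-seq. Condition and library therefore cannot be told apart, and every interval of a level or ratio below covers counting error only.

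In this assay the Tn5 transposase inserts adapters where DNA is not covered by nucleosomes, and the fragments, with PCR duplicates already collapsed, are assigned to nuclei by their barcodes. Open sites far from promoters are often enhancers, which are bound by transcription factors and act on genes at a distance. Astrocytes respond to injury by becoming reactive, a state long tied to signalling through gp130 receptors, JAK kinases and STAT3. AP-1 factors, dimers of Fos, Jun, Atf and Batf proteins, bind many of the enhancers that open when cells are stimulated.

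Barcodes called as cells numbered 6979 in sham and 8740 in stroke, of which 5948 and 4379 passed the filter of over 1000 fragments in peaks that were also over 20% of all fragments, and 66 barcodes were called in both libraries. The astrocyte gate asked for at least 5 fragments over the bodies and 2 kb upstream of 7 genes, Aqp4, Slc1a2, Slc1a3, Gja1, Gjb6, Sox9 and Acsbg1, and a score of 3 or more. The score was the count minus the number expected from depth, divided by the square root of the expected number. The gate held 357 sham and 410 stroke nuclei with 4579637 and 4781010 fragments, a median of 12107 and 10480.5 per nucleus, and shared no barcode between libraries. The share of fragments in peaks was 43.6% in sham and 41.7% in stroke. A list of 11 other astrocyte genes, which the gate did not use, summed to 1111 CPM in sham gate nuclei and 1244 in stroke gate nuclei, against 526 and 532 in the other filtered nuclei, and was itself passed by 153 sham and 209 stroke nuclei of the gate. The gate nuclei were thus higher for astrocyte markers that did not choose them, but 83 sham and 73 stroke nuclei also passed the gate of another cell type, 11 and 20 of them the myeloid gate.

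The 7 sequences below are examples of the most open part of a gained bin, chosen by gene and not at random. They come from bins near genes of the reactive programme and from among the bins with the largest ratios or the most fragments. Each is the 300-base window of the bin with most cut sites, read from the plus strand of the RefSeq GRCm38.p6 assembly, which has the same chromosomes as mm10. Capitals mark matches to 2 patterns searched on both strands, AP-1 (TGANTCA) and STAT (TTCNNNGAA), where N is any base.
Bcl3 intron, chr7:19816313-19816612: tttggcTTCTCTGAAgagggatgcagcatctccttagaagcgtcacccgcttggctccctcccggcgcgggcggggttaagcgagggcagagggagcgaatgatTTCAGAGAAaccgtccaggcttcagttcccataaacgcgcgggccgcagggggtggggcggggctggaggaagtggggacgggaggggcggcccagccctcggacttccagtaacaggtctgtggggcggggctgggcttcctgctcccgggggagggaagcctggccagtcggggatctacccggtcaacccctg
Cd44 intron, chr2:102873390-102873689: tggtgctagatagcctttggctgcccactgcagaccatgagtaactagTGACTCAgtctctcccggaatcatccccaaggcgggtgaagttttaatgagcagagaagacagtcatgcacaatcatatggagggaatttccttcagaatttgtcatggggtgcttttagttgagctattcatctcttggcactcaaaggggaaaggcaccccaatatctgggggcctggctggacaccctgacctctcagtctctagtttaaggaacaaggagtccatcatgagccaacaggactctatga
Sh3bp2 intron, chr5:34535025-34535324: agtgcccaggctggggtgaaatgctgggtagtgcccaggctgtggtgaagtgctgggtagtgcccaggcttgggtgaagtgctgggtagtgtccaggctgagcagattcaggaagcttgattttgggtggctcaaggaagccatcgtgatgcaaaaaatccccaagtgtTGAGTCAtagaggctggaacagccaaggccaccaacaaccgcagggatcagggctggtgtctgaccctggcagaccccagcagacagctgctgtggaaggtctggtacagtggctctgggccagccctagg
distal to Adam12, chr7:134261323-134261622: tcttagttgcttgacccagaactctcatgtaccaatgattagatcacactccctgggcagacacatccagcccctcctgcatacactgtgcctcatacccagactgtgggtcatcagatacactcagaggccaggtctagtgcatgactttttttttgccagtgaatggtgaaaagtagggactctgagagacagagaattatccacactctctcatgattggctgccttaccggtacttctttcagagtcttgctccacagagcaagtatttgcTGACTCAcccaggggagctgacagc
distal to Socs3, chr11:117923381-117923680: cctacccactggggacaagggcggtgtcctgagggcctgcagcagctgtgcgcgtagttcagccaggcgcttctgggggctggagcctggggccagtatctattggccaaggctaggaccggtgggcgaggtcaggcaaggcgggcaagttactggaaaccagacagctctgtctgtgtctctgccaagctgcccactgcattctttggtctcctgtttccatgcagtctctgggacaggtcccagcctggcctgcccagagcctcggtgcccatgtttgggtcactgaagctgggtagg
distal to Tgfbr2, chr9:116376060-116376359: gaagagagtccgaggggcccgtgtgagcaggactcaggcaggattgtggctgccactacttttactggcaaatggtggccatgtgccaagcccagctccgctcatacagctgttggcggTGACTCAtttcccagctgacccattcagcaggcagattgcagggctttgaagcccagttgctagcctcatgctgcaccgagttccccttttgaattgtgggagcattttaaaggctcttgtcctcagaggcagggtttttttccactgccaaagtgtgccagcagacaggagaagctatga
nearest TSS of Sqor, chr2:123387326-123387625: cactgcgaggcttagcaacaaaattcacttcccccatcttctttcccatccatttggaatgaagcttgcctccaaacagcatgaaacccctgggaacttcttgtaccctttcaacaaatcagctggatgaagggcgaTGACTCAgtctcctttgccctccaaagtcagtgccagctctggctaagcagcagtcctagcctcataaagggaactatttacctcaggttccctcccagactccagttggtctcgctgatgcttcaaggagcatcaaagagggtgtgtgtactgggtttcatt
The Cd44, Sh3bp2, Adam12, Tgfbr2 and Sqor windows each held 1 AP-1 match, the Bcl3 window held 2 STAT matches, and the Socs3 window held neither. Over all gained bins, 45.2% of such windows held an AP-1 match and 17.4% a STAT match. Counted from 1 at the start of the 300-base window, the AP-1 match began at base 49 in Cd44, 120 in Tgfbr2, 138 in Sqor, 170 in Sh3bp2 and 276 in Adam12.

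Across the 1456 bins, sham gate nuclei had a median of 8 fragments per bin (0 to 57) and stroke gate nuclei a median of 33 (23 to 169). The ratio with 1 fragment added had a median of 3.47, with the middle 50% of bins from 2.87 to 4.93, against a median of 1.09 over all 17673 bins. Without added fragments, and with bins at 0 in sham placed at the floor of 3 fragments, the median was 3.83. Many bins sat near the lower limits of the rule. The ratio was between 2.5 and 3 in 473 bins, 3 to 5 in 631, 5 to 10 in 270 and 10 or more in 82. Fewer than 50 fragments over both conditions were counted in 998 bins (68.5%), against 58.9% of all compared bins. Of the 1456 bins, 977 reached 30 fragments in the stroke nuclei alone, against 6603 of all 17673 compared bins. In the sham nuclei alone 13 did, all of them among the 977, against 4764 of all compared bins. The gained bins outside the 977 met the minimum only on the sum, so most members entered through the condition in which they were high. The share of bins that met the rule was 9.58% among those with 30 to 49 fragments, 7.73% at 50 to 99, 2.52% at 100 to 199 and 0.699% at 200 or more.

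**Figure D1:**
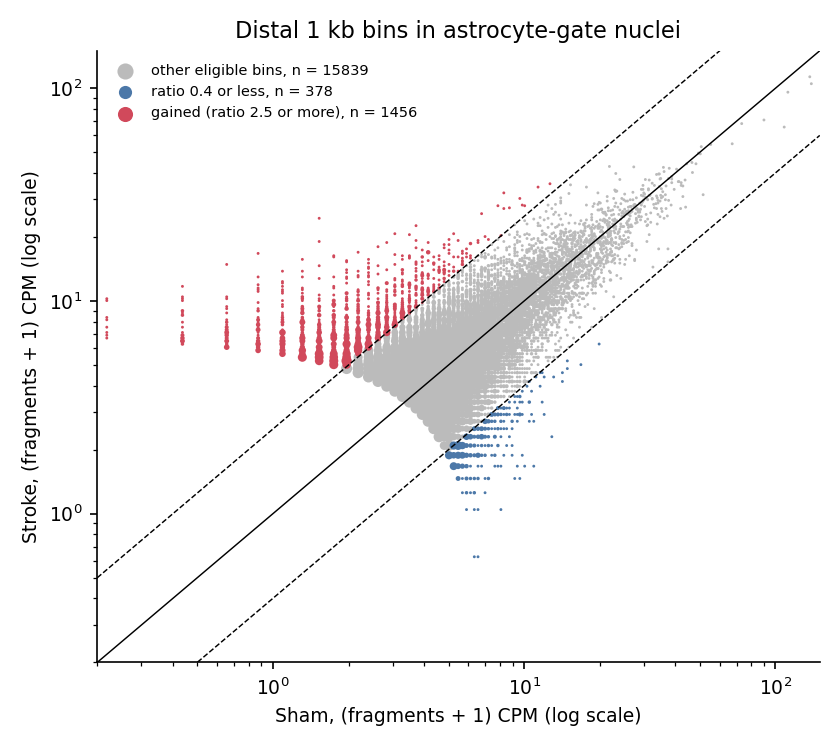
Sham (x) against stroke (y) CPM, with 1 fragment added, in 17673 distal bins of astrocyte-gate nuclei on log axes. Each point is a pair of counts, larger where more bins share it; dashed lines are ratios of 2.5 and 0.4, and the 1456 gained bins lie above the upper line, mostly at low sham levels.

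Just inside the threshold, bins at chr1:94035001-94036000 near Neu4, chr1:153048001-153049000 in an intron of Nmnat2 and chr2:26534001-26535000 near Notch1 had ratios of 2.501, 2.505 and 2.505. Just outside, bins near Prkag2, Qdpr and Npas3 had 2.49 each. The Neu4 bin had 17 sham and 46 stroke fragments in the gate, and the excluded Npas3 bin had 29 and 77. In the second-list nuclei described below, the Neu4 bin had 28 and 14, or 9.59 and 7.35 CPM. Second-list nuclei held 2919619 sham and 1904055 stroke fragments, so equal counts there mean a higher CPM in stroke.

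Gained bins were spread over the genome. Gained bins that adjoined or lay up to 1 kb apart were joined into 1392 regions, of which 1331 were single bins, 59 held 2 gained bins and 2 held more. Between 6.39% (chromosome 19) and 10.8% (chromosome 3) of the compared bins of a chromosome were gained. Introns of protein-coding genes held 43.3% of gained bins, exons 8.45% and intergenic sequence 48.3%, against 41.0%, 12.6% and 46.5% of all compared bins. The median distance to the nearest protein-coding TSS was 35003 bases, against 29639 for all compared bins, and 311 gained bins (21.4%) lay over 100 kb away, against 16.8%. Their median GC content was 47.9%, against 49.3%. Bins within 5 kb of a TSS, which the rule leaves out, met the same count and ratio thresholds in 430 of 20804 cases (2.07%). Of the 7 gate genes, whose own fragments chose the nuclei, only Slc1a3 had a gained bin in its body (1 of 6 compared), and none of the 63 compared bins of Slc1a2 was gained.

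The 15 regions with the largest ratios were ranked on the gate counts, so their low sham counts in the gate follow from that choice. Sham gate nuclei had 0 fragments in 8 of them. For these, folds are against the floor of 3 sham fragments with the stroke count taken as measured, and the lower limit of the exact interval, which covers counting error on both sides, is given beside them. The highest ratio with 1 fragment added, 46.9, lay in an intron of Sh3bp2, which encodes a signalling adaptor, at chr5:34535001-34536000. That bin had 0 sham and 48 stroke fragments, at least 15.3-fold higher in stroke against that floor (lower limit 11.99). Nuclei outside the gate that passed the second astrocyte list had 0 sham and 14 stroke fragments in this bin. An intergenic bin 28855 bases from Adam12, a metalloprotease gene, had 0 and 47 fragments in the gate (at least 15.01-fold, lower limit 11.7) and 5 and 15 in second-list nuclei. An intronic bin of the receptor phosphatase gene Ptprm had 0 and 39 fragments (at least 12.5-fold, lower limit 9.66) with 1 and 7 in second-list nuclei, and one 189927 bases from Msx2, a homeobox gene, had 0 and 35 (at least 11.2-fold, lower limit 8.62) with 1 and 17 in second-list nuclei. The other 4, nearest to Lrfn2, Gm973, Gm12695 and Tubd1, had 0 sham and 31 to 38 stroke fragments, at least 9.90-fold to 12.1-fold higher, with lower limits from 7.58 to 9.40. In second-list nuclei they had 2 and 3, 2 and 9, 1 and 9 and 1 and 13 fragments in that order, too few in the Lrfn2 bin to read a direction.

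Bins with 1 or more sham fragments were not set to the floor, so their ratios are not on the scale of the folds above. Another 2 of the 15 leading regions lay near the same gene, Calml3, at chr13:3782001-3783000 and chr13:3792001-3793000. The first had 2 sham and 70 stroke fragments, a ratio of 33.5 (8.94 to 282), and the second 1 and 49, a ratio of 46.9 (8.04 to 1891). In second-list nuclei they had 1 and 22 and 1 and 15 fragments. The bin at chr2:160225001-160226000, 87616 bases from Gm826, had 1 and 55 gate fragments and 0 and 19 in second-list nuclei. It also had 6 sham and 36 stroke fragments in myeloid-gate nuclei. The last 4 leading bins had 1 sham and 42 to 48 stroke gate fragments. In second-list nuclei the bin near Hdgfl1 had 6 and 12 fragments, the one near Atp5o 1 and 12 and the one near Kazn 6 and 16. The bin over an exon of Git2 had 3 and 3, or 1.03 and 1.58 CPM.

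The bins with most fragments had moderate ratios. A bin 7738 bases from Rabggta, at chr14:55730001-55731000, had 57 sham and 169 stroke fragments, a ratio of 2.84 (2.09 to 3.91). A bin at chr13:4771001-4772000, whose nearest TSS was that of Akr1e1 at 161827 bases, had 51 and 163, a ratio of 3.06 (2.22 to 4.28). The bin 587239 bases from Sqor had 37 and 153, a ratio of 3.96 (2.75 to 5.84), and 16 and 52 in second-list nuclei.

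Several genes had more than 1 gained bin around them. Irs2, which encodes an adaptor of insulin receptor signalling, was nearest to 8 gained bins of 15 compared, with 71 sham and 339 stroke fragments summed. They included the region with most gained bins, 4 of the 5 bins of chr8:10924001-10929000, whose highest bin at chr8:10928001-10929000 had 11 sham and 85 stroke fragments, a ratio of 7.40 (3.93 to 15.4), and 5 and 28 in second-list nuclei. Socs3, the feedback inhibitor of gp130 and STAT3 signalling, was nearest to 7 gained bins of 12 compared, spread from 5815 to 45186 bases away. They summed to 48 sham and 243 stroke fragments, and none of the 7 held an AP-1 match. Cebpd, a C/EBP factor gene induced by STAT3, was nearest to 4 gained bins of 4 compared, all within introns of the neighbouring gene Spidr. Its highest by fragments had 16 sham and 91 stroke fragments. Cnn3, an actin-binding calponin gene, had 4 of 5 and Daam2, a regulator of Wnt signalling and actin, 4 of 11. The gene models Gm20388 and Fgfr2 held 11 gained bins of 129 compared and 10 of 48, but in the annotation used both span several other genes, and the nearest TSS was that of another gene in each of these bins.

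Gained bins were then counted for gene lists, taking a bin as a gene's if it lay in its body or nearest its TSS. Of the 6770 genes with a compared bin, 1286 had a gained one. The counts below are descriptions, because genes with more compared bins have more chances and because the lists were drawn up with earlier results of these libraries known.

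The list of gp130, JAK and STAT signalling had gained bins at 8 of 10 genes with a compared bin, and 24 of its 48 compared bins were gained, against 8.24% of all. These were Stat3, Socs3, Lifr, Jak1, Bcl3, Cebpd, Cebpb and Pim1, whereas Osmr and Jak2 had compared bins and none gained. The intronic bin of Bcl3, an atypical IkB protein gene, at chr7:19816001-19817000 had 6 sham and 116 stroke fragments, a ratio of 18.5 (8.25 to 51.5). In second-list nuclei it had 2 and 37 fragments, in myeloid-gate nuclei 4 and 25, and in oligodendrocyte-gate nuclei 4 and 24. The most distant Socs3 bin, at chr11:117923001-117924000, had 10 and 68 fragments, a ratio of 6.51 (3.33 to 14.2), and 6 and 17 in second-list nuclei. The 2 bins of Stat3 itself, which adjoined 6461 bases from its TSS, had 6 and 24 and 9 and 28 fragments. All 24 bins of the list had a higher level in stroke than in sham second-list nuclei, where together they held 92 and 275 fragments, a ratio of 4.58 (3.61 to 5.87).

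Genes raised in reactive astrocytes of several kinds of injury had gained bins at 4 of 7 genes. Cd44, the hyaluronan receptor, had 2 intronic bins. The bin at chr2:102873001-102874000 had 4 sham and 51 stroke fragments, a ratio of 12.2 (4.49 to 46.5), and 0 and 17 in second-list nuclei. The bin 98639 bases from S1pr3, a sphingosine-1-phosphate receptor gene, had 3 and 53 fragments, a ratio of 16.9 (5.48 to 84.7). One of 2 adjoining bins near Hspb1, a small heat shock protein gene, had 6 and 60 fragments, a ratio of 9.58 (4.15 to 27.1), and 4 and 18 in second-list nuclei. Aspg had 1 gained bin, Serpina3n, Osmr and Cp had compared bins and none gained, and Gfap, Vim, Lcn2, Steap4, Timp1 and Cxcl10 had no compared bin, so distal bins say nothing about them here. The 6 gained bins of this list summed to 18 sham and 66 stroke fragments in second-list nuclei, a ratio of 5.62 (3.30 to 10.1).

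Lists of genes described as leaning to neuroinflammation (A1-type) or ischemia (A2-type) had gained bins at 3 of 4 and 4 of 7 genes. Among the former, an intronic bin of Fkbp5, a co-chaperone of steroid receptors, at chr17:28464001-28465000 had 1 sham and 35 stroke fragments, a ratio of 33.5 (5.64 to 1362), with 1 and 12 in second-list nuclei and 3 and 13 in myeloid-gate nuclei. A bin near Ggta1 had 37 and 129 fragments, a ratio of 3.34 (2.30 to 4.95). The 5 gained bins of this list summed to a ratio of 5.54 (3.25 to 9.92) in second-list nuclei. Among the latter, S100a10 had 2 bins and Ptx3, Cd109 and Slc10a6 1 each. They had 29 to 50 stroke fragments and 6 to 10 sham fragments, and their sum in second-list nuclei gave a ratio of 2.49 (1.62 to 3.85). The 2 intervals overlap, and the difference between the lists was not tested.

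Genes of growth factor and TGF-beta signalling had gained bins at 6 of 11 genes, Tgfb2, Tgfbr2, Smad3, Smad7, Fgfr1 and Lif. The bin at chr9:116376001-116377000, nearest to Tgfbr2, a TGF-beta receptor gene 200641 bases away, had 17 and 82 fragments, a ratio of 4.62 (2.72 to 8.31), and 0 and 25 in second-list nuclei. Genes of the AP-1 factors themselves had gained bins at 3 of 7 (Jun, Atf3 and Batf), NF-kB genes at 2 of 7 (Nfkbiz and Bcl3), and genes of hypoxia and glycolysis at 3 of 9 (Pfkfb3, Slc2a1, the glucose transporter gene, and Pdk4). Of the 72 gained bins of all the lists, 3 were lower in stroke in second-list nuclei. These were the Nfkbiz bin, with 10 sham and 2 stroke fragments, the Slc2a1 bin at chr4:119083001-119084000, with 3 and 1, and the Sox9 bin at chr11:112927001-112928000, with 11 and 4. The Batf bin had 2 sham and 31 stroke fragments in myeloid-gate nuclei and 1 and 9 in second-list nuclei. Genes of scar matrix and adhesion had a gained bin at 1 of 12, Cd44. Genes of astrocyte homeostasis had gained bins at 6 of 16, but 12 of their 227 compared bins were gained, a share below the 8.24% of all bins. These 12 had ratios with 1 fragment added from 2.55 to 4.24. The list holds 6 of the 7 genes that chose the nuclei, all but Acsbg1.

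The first measurement the rule did not use was the level of the same bins in other nuclei, 240 sham and 186 stroke. These failed the astrocyte gate but passed the second astrocyte list. Unlike the astrocyte gate, this set left out nuclei that passed the gate of another cell type. There the gained bins summed to 7832 fragments in sham (2682 CPM, 2624 to 2743) and 14752 in stroke (7748 CPM, 7623 to 7874), a ratio of 2.89 (2.81 to 2.97). The other compared bins had a ratio of 1.14 in these nuclei. The ratio was below that of the gate, 4.05 (3.97 to 4.13), on which the bins were selected. Of the 1456 bins, 1349 (92.7%) had higher CPM in stroke, against 63.1% of all 17673, and 825 (56.7%) had a ratio of 2.5 or more, against 14.96% of all. Single bins were thinly covered, with medians of 5 sham and 9 stroke fragments, so a single bin's direction is uncertain. A near-gate set of 415 sham and 391 stroke nuclei lay just below the gate, with scores from 1 to under 3, and passed no gate of another cell type. Some of its nuclei were also in the second-list set, so the 2 sets are not separate. In the near-gate set the ratio was 2.08 (2.04 to 2.13), against 0.984 for the other bins. These nuclei come from the same libraries and are not replicates. Marker sums also moved with condition in second-list nuclei. From sham to stroke, the 7 gate genes went from 229 to 328 CPM, myeloid markers from 254.8 to 319.8, endothelial markers from 95.2 to 126 and glutamatergic markers from 421 to 322, while the second list itself was at 1715 and 1737. The part of these shifts in the ratio of 2.89 was not tested.

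The ratio in second-list nuclei followed that in the gate. It was 0.596 (0.569 to 0.624) over the bins lower in stroke, 1.13 over the 6663 bins with gate ratios around 1, 1.52 over the 5400 bins between those and the threshold, and within the gained bins 2.24 at 2.5 to 3, 2.89 at 3 to 5, 4.11 at 5 to 10 and 6.36 (5.46 to 7.44) at 10 or more.

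**Figure D2:**
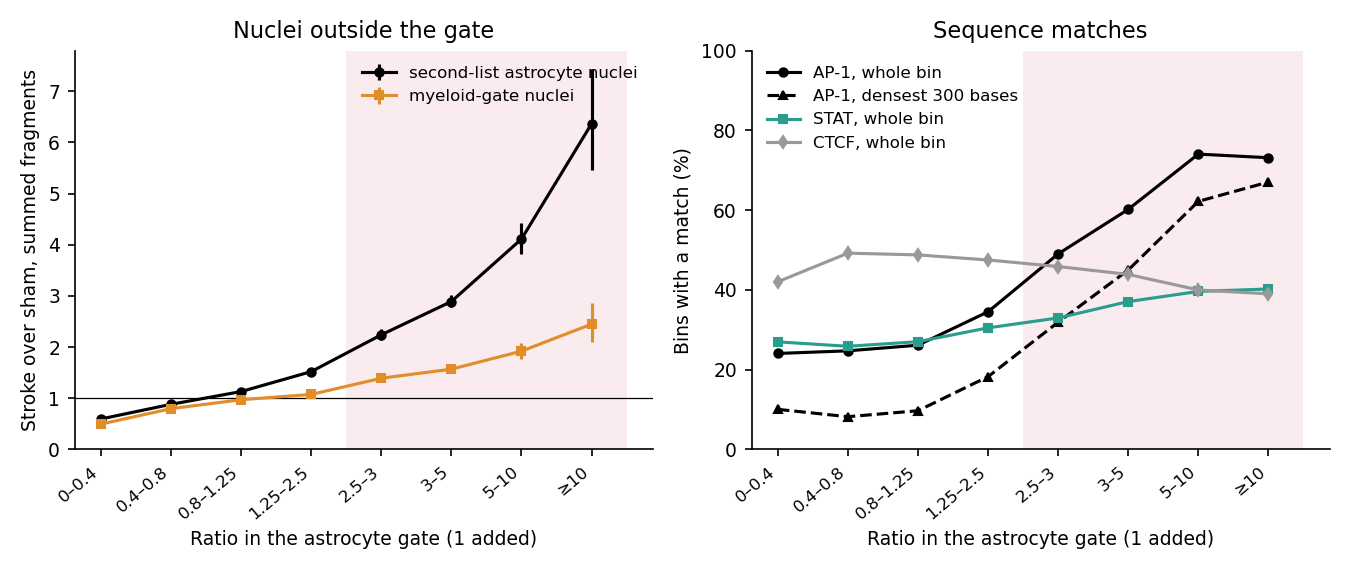
Bins grouped by their stroke over sham ratio in the astrocyte gate (x), with the bands of gained bins shaded. Left, stroke over sham of summed CPM in nuclei outside the gate with exact 95% intervals, reaching 6.36 in second-list nuclei and 2.45 in myeloid-gate nuclei; right, the percentage of bins with a match to each pattern, where AP-1 goes from 24.1% to 73.2%.

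Gates built on markers of other cell types gave smaller ratios in the same bins. Nuclei were placed in these gates by the same formula, and the names are those of gates, not of annotated cell types. In the myeloid gate, 257 sham and 246 stroke nuclei, the gained bins went from 1921 CPM in sham to 3035 in stroke, a ratio of 1.58 (1.53 to 1.63), against 0.922 for the other compared bins. The oligodendrocyte precursor cell (OPC) gate had 1.57 (1.52 to 1.62), the oligodendrocyte gate 1.56 (1.505 to 1.61), the endothelial gate 1.41 (1.36 to 1.47), the granulocyte gate, with 100 sham and 56 stroke nuclei, 1.34 (1.27 to 1.42), the GABAergic gate 1.27 (1.24 to 1.31) and the glutamatergic gate 1.18 (1.14 to 1.22). Nuclei of no gate, 3233 sham and 2181 stroke with the second-list and near-gate nuclei left out, had 1.29 (1.27 to 1.30). Sham levels lay between 1871 and 2206 CPM in these gates and at 2920 in the astrocyte gate, whereas stroke levels were 2207 to 3461 and 11822. In stroke, 1342 of the 1456 bins (92.2%) had their highest CPM in the astrocyte gate, against 64.0% of all compared bins. The myeloid gate had it in 23 (1.58%, against 2.62% of all) and the oligodendrocyte gate in 27 (1.85%, against 4.46%). The astrocyte-gate share is partly set by the rule, which used the stroke level in that gate, and the other shares fall as it rises.

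**Figure D3:**
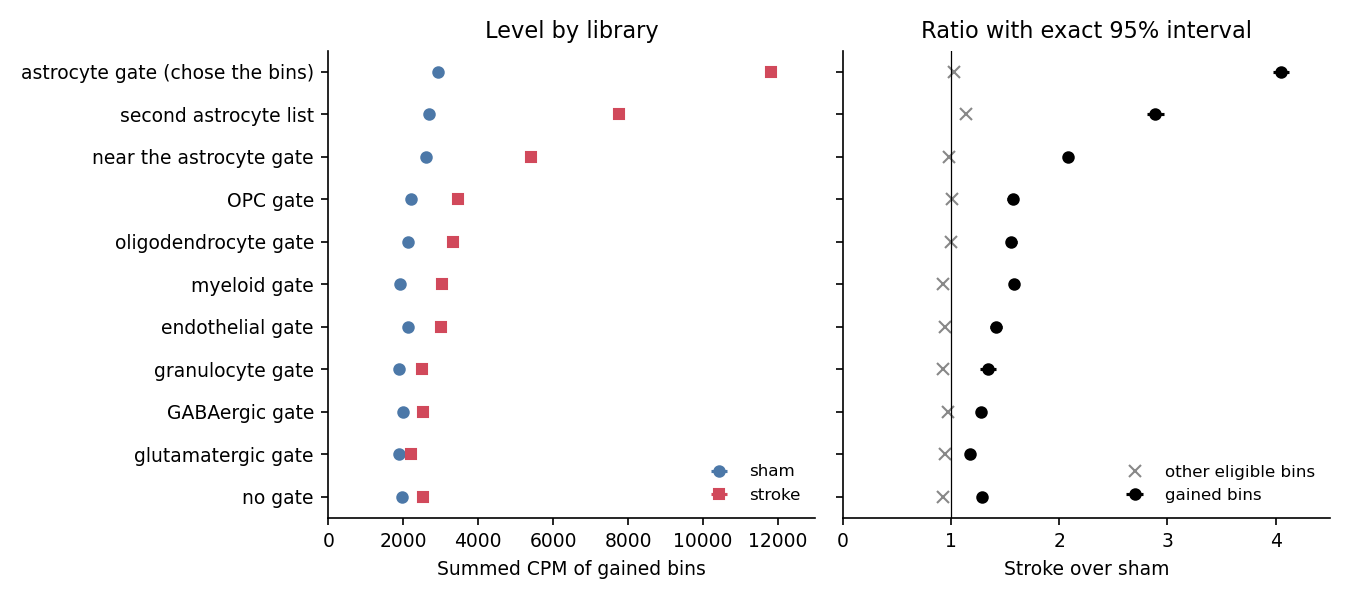
CPM summed over the 1456 gained bins in each group of nuclei (left; sham circles, stroke squares) and stroke over sham with exact 95% intervals (right; crosses are the other compared bins). Stroke levels go from 11822 in the astrocyte gate and 7748 in second-list nuclei to 2207 in the glutamatergic gate, while the crosses stay between 0.922 and 1.14.

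The gates were mixed, and markers of other cells moved with condition in the astrocyte gate. Of 13 myeloid markers, 10 were higher in stroke gate nuclei, and none was at 0. They summed to 329 CPM in sham and 372 in stroke, close to 325 and 375 in the other filtered nuclei and below 1374 and 1252 in the myeloid gate. C1qa and Tmem119, which mark microglia, had 0.873 and 3.71 CPM in sham gate nuclei and 2.30 and 5.86 in stroke gate nuclei. Of the endothelial markers 5 of 6 were higher in stroke, with sums of 126 CPM in sham and 146 in stroke, and of the glutamatergic markers 0 of 7 were, with 400.9 and 289. Subsets of the gate nuclei had similar ratios, 4.13 without the nuclei that also passed another gate and 4.23 at an astrocyte score of 6 or more, but these nuclei chose the bins and the values support nothing on mixing. In myeloid-gate nuclei with a score of 6 or more it was 1.54 (1.46 to 1.62). The part of mixed barcodes in these ratios was not tested.

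Signal in gained bins varied widely between stroke nuclei. Values in the gate nuclei follow from how the bins were chosen and are given as a description. A bin had fragments from a median of 8 sham and 29 stroke gate nuclei. Per 10000 fragments of a nucleus, sham gate nuclei had a median of 27.6 in gained bins (2.55 to 114) and stroke gate nuclei a median of 117 (6.88 to 389), and 290 of 410 stroke nuclei (70.7%) exceeded the sham 90th percentile of 59.2. The lowest 25% of stroke nuclei lay below 46.9, within the range of sham. In second-list nuclei, which the rule did not use, the medians were 22.3 (5.30 to 180) and 64.5 (6.62 to 343), and 89 of 186 stroke nuclei (47.8%) exceeded the sham 90th percentile of 71.6. The ranges overlapped in both groups of nuclei. Cells of 1 library are not replicates, and these values describe the 2 libraries only.

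**Figure D4:**
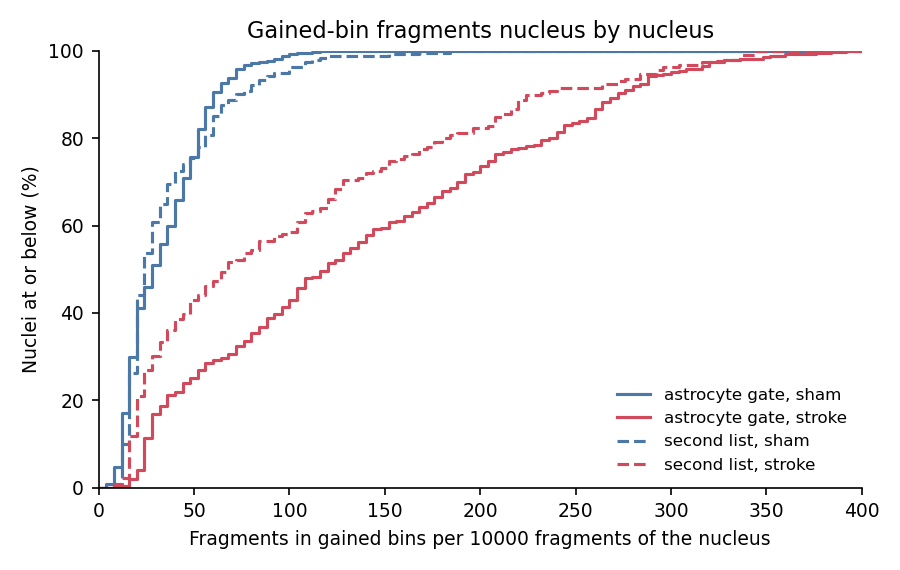
Cumulative percentage of nuclei (y) at or below a given number of gained-bin fragments per 10000 fragments of the nucleus (x). Solid lines are astrocyte-gate nuclei and dashed lines second-list nuclei outside the gate; the stroke curves lie to the right of sham, with medians of 117 against 27.6 and 64.5 against 22.3.

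DNA sequence was the second measurement that the rule did not use. Intervals of shares treat each bin as an independent draw, although some gained bins adjoin. The AP-1 pattern was present in 872 of 1456 gained bins (59.9%, 57.3% to 62.4%), against 31.1% of all compared bins, 32.2% when these were weighted to the GC content of the gained bins, and 24.1% of the bins lower in stroke. In the densest 300 bases of the bin it was present in 45.2% against 14.9%. Of the 1287 AP-1 matches in gained bins, 830 (64.5%) lay in that window, against 38.6% of matches in the other bins. The share went from 49.0% of gained bins at ratios of 2.5 to 3 through 60.2% and 74.1% to 73.2% at ratios of 10 or more. Read the other way, 4.80% of compared bins with no AP-1 match were gained, 12.5% of those with 1, 27.1% with 2 and 34.2% with 3 or more. In each 5-point class of GC content from 35% to 60%, the gained bins had the higher share, from 70.7% against 34.6% at the lowest to 49.0% against 23.8% at the highest.

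In percentage points, differences were smaller for the other patterns. STAT was in 36.4% (33.9% to 38.9%) of gained bins against 28.6% of all (29.8% at the GC content of the gained bins), and its narrow form TTCCNGGAA, a subset of the first, in 7.55% (6.25% to 9.03%) against 3.88% (3.85%). As a ratio of shares the narrow form differed about as much as AP-1, and in the densest 300 bases it was in 4.12% against 1.47%. TEAD (CATTCC) was in 52.0% against 46.3% (46.5%), ETS (GGAAGT) in 54.7% against 49.6% (49.3%), and C/EBP (TTGCNNAA) in 38.3% against 35.3% (36.9%). CTCF (CCACNAG) was in 43.5% against 47.9% (46.5%). NF-kB (GGGA, any 4 bases, CC) was in 39.904% against 43.0%, but against 39.995% at the GC content of the gained bins, so that difference was not kept. The cyclic AMP response element (TGACGTCA), which holds no AP-1 match within itself, was in 1.30% against 1.27%. The patterns for SOX (ACAANG), RUNX (TGTGGT), E-box (CAGCTG), hypoxia (ACGTG), glucocorticoid receptor (ACANNNTGT), MEF2-like (TATTTNTA), RFX-like (GTTGCNNNG), PU.1 (GAGGAAG, which can share letters with ETS) and NFI as a single site (TTGGCN) or a paired site differed by under 3 percentage points. A match is a run of letters and not a measured binding site.

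Gained bins without an AP-1 match had the narrow STAT form in 9.59%, against 6.19% of those with one. Their ratio in second-list nuclei was 2.72 (2.60 to 2.84), against 3.002 (2.90 to 3.11) with a match. Of the 72 gained bins of all the lists, 27 (37.5%) held an AP-1 match. The share was 6 of 24 for the gp130, JAK and STAT list, 3 of 12 for homeostasis, 4 of 10 for growth factors and TGF-beta and 5 of 6 for the reactive astrocyte list, and the other lists had 2 to 5 bins each with 1 to 3 matches. STAT was in 8 of the 24 bins of the gp130, JAK and STAT list (33.3%), against 36.4% of all gained bins, and its narrow form in 3.

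**Figure D5:**
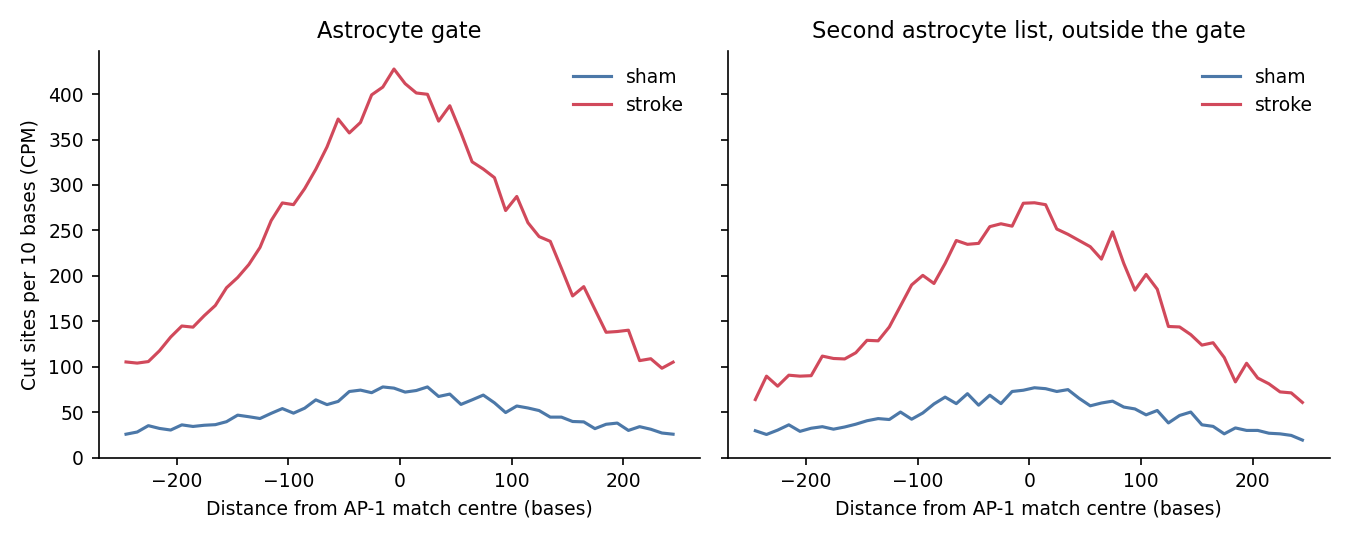
Tn5 cut sites per 10 bases, scaled to 1000000 fragments (y) by distance from the centre of 830 AP-1 matches in the densest windows of gained bins (x), in astrocyte-gate nuclei (left) and second-list nuclei outside the gate (right). Stroke exceeds sham over the whole span in both, which in the gate follows from how the bins were chosen. The curves are highest within 30 bases of the match centre.

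Around those 830 matches, cuts within 11 to 50 bases of the centre were 2.44 times as dense as cuts 200 to 250 bases away in sham gate nuclei and 3.42 times in stroke gate nuclei. In second-list nuclei the values were 2.43 and 3.20. Over the 7 bases of the match, cuts were 1.04 times as dense as in its flanks in sham and 1.08 times in stroke gate nuclei, without correction for the base preference of Tn5. The windows were placed on the densest cuts of the gate nuclei of both libraries together, which favours a central peak in the gate. Most gate fragments in gained bins were from stroke (56522, against 13373 from sham), so the placement may favour the peak more in stroke than in sham gate nuclei. Fragments under 150 bases made up 75.3% of sham and 79.8% of stroke fragments in gained bins, against 79.2% and 79.8% in the other compared bins.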

How the data were processed

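Per the labels, the authors processed reads with Cell Ranger ATAC 2.1.0 and an mm10 reference, and deposited unnormalized counts per barcode and a list of deduplicated fragments (76959104 in sham, 96465679 in stroke). Everything else was computed here with Python 3.11.15, numpy, pandas and scipy 1.17.1, using GENCODE M21 gene models. The members and all lists were chosen with earlier results of these data known. Expected marker fragments were the barcode's fragments times the share pooled over filtered barcodes of both libraries. A fragment was counted in the 1 kb bin of its midpoint, and CPM refers to all fragments of the nuclei summed. With 1 library per condition no test was run. Ratios of sums have exact conditional binomial 95% intervals, levels exact Poisson intervals and shares exact Clopper-Pearson intervals. A sham gate count of 0 was set to 3 only for the folds against that floor and for the median ratio without added fragments. No doublets were removed. Calls, intervals and motif searches were tested on simulated data. Named regions were the 15 with the highest ratio, the 10 others with most fragments, the 3 bins on each side of the threshold, bins of listed genes, and the regions and genes with most gained bins. Alternatives changed the gate, the counting, the scaling, the added fragments and the thresholds.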

Additional observations from a re-analysis of the deposited data

Results flagged for a closer look

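Barcodes outside the filtered nuclei had lower CPM in gained bins in stroke, unlike the astrocyte gate, and the difference from the gate was not tested. In called barcodes that failed the filter, 1031 in sham and 4361 in stroke, the gained bins had a stroke over sham ratio of CPM of 0.543 (0.528 to 0.559), and the other compared bins 0.420. Their share of fragments in peaks was 23.6% in sham and 10.3% in stroke. Scaled to fragments in peaks, an alternative chosen after seeing the data, the ratio was 1.24 (1.21 to 1.28), against 0.963 for the other bins, so the direction in these barcodes depended on the scaling. In barcodes not called as cells the CPM ratios were 0.637 (0.616 to 0.659) and 0.331, so gained bins were 1.92 times as high relative to the other bins. Scaling to fragments in peaks was not run for these.

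The X chromosome was outside the rule. Of its 172 distal bins with 30 or more astrocyte-gate fragments, 9 met the same ratio (5.23%) and 4 the mirror ratio.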

How the results depend on the processing

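The number of gained bins moved with how the gate was built, the minimum of fragments, the fragments added and the ratio limit. It was 842 of 10427 compared (8.08%) with a score of 4, of which 680 were among the 1456, 3128 of 33508 (9.34%) with a minimum of 20 fragments and 458 of 7257 (6.31%) with a minimum of 50. It was 954 of 16352 (5.83%) with the score built on fragments in peaks (849 shared). Over the same 17673 bins it was 966 (5.47%) with 5 fragments added and 2440 (13.8%) at a ratio of 2. The other 12 alternatives gave values within 1.5 times of 1456, from 983 (5.56%) at a ratio of 3 to 2096 (6.73% of 31139) at a score of 2, and 1214 when scaled to the median ratio of compared bins. Over 9 alternatives of gate, counting and scaling, 463 bins (31.8%) were gained in all.

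In nuclei outside the gate the ratio was 2.08 near the gate and 3.13 when scaled to fragments in peaks. In myeloid-gate nuclei it was 1.94 when scaled to fragments in peaks. It was 1.74 over all 321 sham and 299 stroke nuclei that met the myeloid score, including those placed in the astrocyte gate or another gate. The AP-1 share was 45.2% in 300 bases and 65.1% for bins at a ratio of 3. The ratios in second-list and myeloid-gate nuclei stayed above 1 in each alternative run, whereas that of called barcodes that failed the filter went from 0.543 to 1.24 when scaled to fragments in peaks. The causes were not tested. Limits of 6 for the myeloid score and of bins outside the marker genes were chosen after seeing the data and gave 1.54 and 2.90. No paired analysis was possible because sham and stroke were 1 library each. A sham count of 0 in a gate bin allows up to 0.655 CPM.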
